A study of Mus musculus with 24 samples.

Results

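Aminoacyl-tRNA synthetases, the enzymes that attach each amino acid to its matching tRNA, were followed in mouse liver under dietary methionine restriction (MR). The 39 members were taken by gene symbol from a fixed list: 20 genes of cytosolic synthetases, 16 genes of mitochondrial synthetases (symbols ending in 2), and Aimp1, Aimp2 and Eef1e1, the 3 non-enzymatic proteins of the multi-synthetase complex. All 39 were found among the 15160 genes of the count table, and all 39 passed the filter on low counts that left 13336 genes to test. The gene that the list gives as Mars appears under its newer symbol Mars1, and the others keep the older symbols of the table.

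The samples were livers of male mice, labelled as 5 months old, 1 QuantSeq 3′ mRNA library per mouse. All carried floxed alleles of Nfe2l2, the gene of the transcription factor NRF2. WT mice were NRF2fl/fl and had no cre, whereas NRF2 KO mice were NRF2fl/(alb), in which cre driven by the Albumin promoter removes exon 5 in the liver. The paper proposes that the Nfe2l2 mRNA left in NRF2 KO liver most likely comes from resident macrophages. From 8 weeks of age, mice ate an elemental amino acid diet for 8 weeks, with methionine at 0.86% in Con and at 0.17% in MR and cysteine in neither. In the paper's longer experiment, calorimetry and a return to home cages followed these 8 weeks before tissue was taken. The mice were killed after a 4 h fast. WT Con and WT MR each had 5 mice and NRF2 KO Con and NRF2 KO MR each had 6, after the mice WT_CON_7604 and WT_MR_7612, which the study removed as outliers, were left out. Statements below on overlap between groups are for these 22 mice.

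Each synthetase joins 1 amino acid, or in the case of Eprs both glutamate and proline, to tRNA for use by ribosomes. The cytosolic enzymes serve translation of nuclear genes, and the mitochondrial enzymes, also encoded in the nucleus, serve translation of the few proteins encoded in mitochondrial DNA. Several cytosolic synthetases sit together in the multi-synthetase complex, and many of their genes are known targets of ATF4, the transcription factor of the amino acid response.

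Depth ran from 6197291 to 22068338 counts per mouse, with a median of 15019791.5. The 6 hepatocyte markers summed to between 76650 and 133800 CPM, the counts scaled to library size, in every mouse. Nfe2l2 itself was higher in NRF2 KO than in WT mice on both diets, at 281 against 158 CPM on Con (exact permutation test, two-sided p = 0.022, n = 6 and 5) and at 227 against 100.1 CPM on MR (p = 0.0043, exact permutation test, n = 6 and 5, the smallest p this design allows). QuantSeq reads the 3′ end of the mRNA, so this count is no check of the deletion. In edgeR's test Nfe2l2 on Con was near the threshold (log2 0.83, adjusted p = 0.045), and that call was lost in 20 of 22 fits that each left out 1 mouse (adjusted p up to 0.13). Without the library labelled WT_CON_7607, WT Con averaged 117 CPM (exact permutation p = 0.0095, n = 6 and 4). The library labelled WT_CON_7607 had 324 CPM of Nfe2l2, within the 228 to 339 CPM of the NRF2 KO Con mice, whereas the other 9 WT libraries had 94.0 to 125 CPM. On this count alone its genotype label is in doubt. The paper states that real time PCR of hepatic Nfe2l2 mRNA was used to check the genotype of all mice. With primers for the excised sequence, the paper reports less Nfe2l2 mRNA in NRF2 KO than in WT liver. The PCR value of this mouse is not given in the sources used here. The WT Con values below include the library as labelled, with the value without it beside each call that its removal ended. Asns, the asparagine synthetase gene and a known ATF4 target, rose by 4.09 on the log2 scale in WT and by 3.86 in NRF2 KO under MR.

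Under MR part of the cytosolic synthetases rose in each genotype, and none was called lower in the fit of 22 mice. In WT mice 10 of the 20 cytosolic members were called at an adjusted p under 0.05 by the quasi-likelihood test of edgeR, adjusted by Benjamini-Hochberg over all genes, and all 10 were higher (Dars, Eprs, Gars, Iars, Mars1, Nars, Qars, Rars, Vars and Yars). Without the library labelled WT_CON_7607, 7 were called, the lost ones being Dars, Mars1 and Vars. Among all genes tested, 13.8% were called in this comparison and 6.91% were called higher. In NRF2 KO mice 8 of the 20 were called, all of them higher (Cars, Eprs, Gars, Iars, Mars1, Nars, Rars and Yars), where 12.6% of all genes were called, 6.23% higher and 6.34% lower. The median log2 fold change of the 20 was 0.253 in WT and 0.18 in NRF2 KO, beside medians over all genes of -0.006 and -0.004. Standard errors of the cytosolic members were 0.065 to 0.149 in WT mice and, with 6 mice a group, 0.059 to 0.136 in NRF2 KO mice.

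Fewer of the mitochondrial synthetases were called. In WT 1 of the 16 was called, Ears2, and it was higher. In that comparison 5 of the 16 had an unadjusted p under 0.05, beside 3779 of all 13336 genes. Every WT MR mouse was above every WT Con mouse for 2 of the 16, Ears2 and Vars2, beside 5.32% of all genes. In NRF2 KO 0 of the 16 were called by edgeR, and DESeq2 and limma on the deposited normalized values also called 0. Limma with all 24 mice and quality weights called Cars2 higher (log2 0.246, adjusted p = 0.047) and Yars2 lower (-0.23, adjusted p = 0.036). In edgeR's test in NRF2 KO, 3 of the 16 had an unadjusted p under 0.05, beside 3641 of all 13336 genes. The median log2 fold change of the 16 was -0.018 in WT and -0.053 in NRF2 KO. The difference between the sets was not tested, since the members were chosen as sets with earlier results known.

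**Figure D1:**
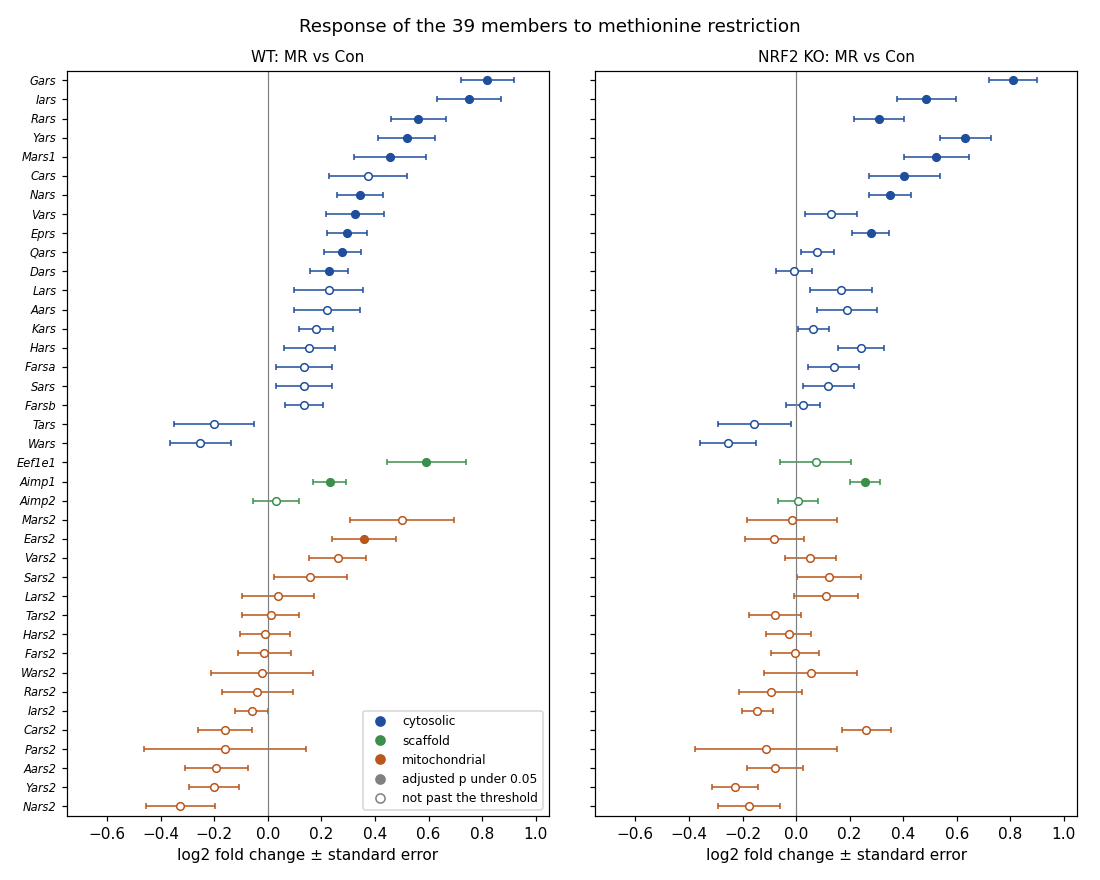
Log2 fold change of MR against Con with its standard error (horizontal axis) for each of the 39 members (rows), in WT on the left and NRF2 KO on the right. Colours mark the cytosolic, scaffold and mitochondrial sets and filled points have an adjusted p under 0.05. The 10 filled cytosolic points in WT and the 8 in NRF2 KO all lie above 0, from 0.228 for Dars to 0.819 for Gars in WT, and the mitochondrial points lie on both sides of 0.

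Summed CPM per mouse showed the same division. The 20 cytosolic members together measured 1130 ± 67.1 CPM (SD, n = 5) in WT Con and 1329 ± 80.7 CPM (SD, n = 5) in WT MR. In NRF2 KO they measured 1056 ± 48.3 CPM (SD, n = 6) on Con and 1220 ± 92.5 CPM (SD, n = 6) on MR. Among the 22 mice, every MR mouse was above every Con mouse of its genotype. The WT MR mice began at 1264 CPM against at most 1249 CPM in WT Con, and the NRF2 KO MR mice at 1110 CPM against at most 1106 CPM in NRF2 KO Con. The 16 mitochondrial members together held 183 ± 7.45 CPM in WT Con, 181 ± 3.24 CPM in WT MR, 189 ± 2.73 CPM in NRF2 KO Con and 181 ± 6.54 CPM in NRF2 KO MR (SD, n = 5, 5, 6 and 6), and these ranges overlapped in WT and in NRF2 KO. In bulk liver, a change in the number of cells of a type and a change in RNA per cell cannot be told apart.

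**Figure D2:**
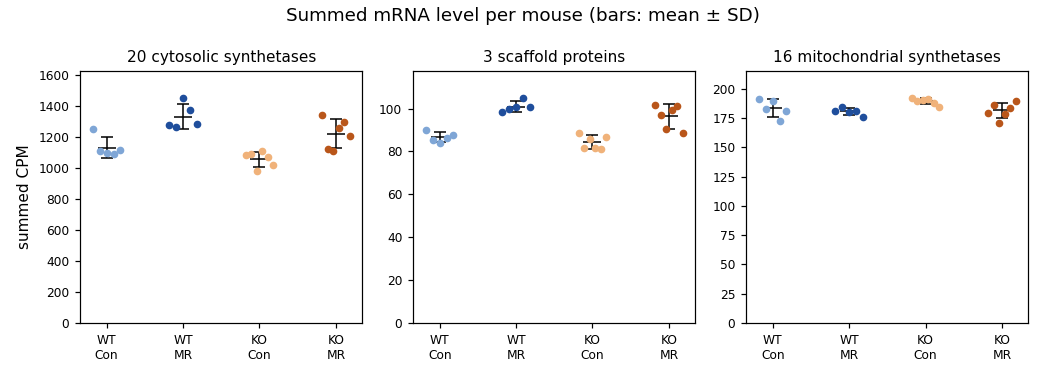
Summed CPM (vertical axis) of the 20 cytosolic synthetases, the 3 scaffold proteins and the 16 mitochondrial synthetases in each of the 22 mice, by group. Points are mice and bars are mean ± SD. Cytosolic sums average 1130 CPM in WT Con, 1329 CPM in WT MR, 1056 CPM in NRF2 KO Con and 1220 CPM in NRF2 KO MR, and mitochondrial sums stay between 171 and 192 CPM in all 4 groups.

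Markers of other cells moved with diet in part. The 5 bile duct markers, mainly Sox9 and Spp1, summed to 49.2 to 72.0 CPM in WT Con and 20.9 to 28.3 CPM in WT MR, and to 31.6 to 53.0 CPM in NRF2 KO Con and 20.7 to 29.0 CPM in NRF2 KO MR. All 5 were in the table, and the keratins Krt19 and Krt7 reached at most 1.75 and 1.87 CPM in any mouse. Of the list only Sox9 was apart by diet in NRF2 KO, at 17.1 to 34.7 CPM on Con and 9.42 to 15.9 CPM on MR. Spp1, Krt19 and Epcam overlapped between the diets in both genotypes, and Krt7 in NRF2 KO. The 6 hepatocyte markers held 86760 to 118800 CPM in WT Con, 76650 to 95540 CPM in WT MR, 113600 to 133800 CPM in NRF2 KO Con and 97570 to 121300 CPM in NRF2 KO MR. In WT the Kupffer cell markers (5 of 6 in the table, Clec4f missing) held 172 to 252 CPM on Con and 144 to 165 CPM on MR, and the neutrophil markers (3 of 4, Ly6g missing) held 8.01 to 14.2 CPM and 6.31 to 7.44 CPM. Both lists overlapped between the diets in NRF2 KO. Pancreatic acinar markers (4 of 6 in the table) reached 34.9 CPM in the mouse KO_MR_7632 and 6.52 CPM in 1 NRF2 KO Con mouse, and were at most 1.56 CPM in both WT groups. Without KO_MR_7632, 7 cytosolic members in place of 8 were called in NRF2 KO, the lost one being Cars. The part of the bile duct, hepatocyte, Kupffer cell and neutrophil markers in the results was not tested.

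Glycyl-tRNA synthetase (Gars, ENSMUSG00000029777, chr6:55038007-55079500 in GRCm38) charges both cytosolic and mitochondrial tRNA with glycine and had the largest log2 fold change of the 39 members in both genotypes. The 5 WT Con mice measured 41.5, 39.0, 35.2, 40.4 and 42.6 CPM and the 5 WT MR mice measured 70.7, 64.8, 81.5, 71.1 and 62.5 CPM. In NRF2 KO the lowest, median and highest values were 32.4, 38.5 and 43.3 CPM on Con and 52.8, 69.4 and 78.3 CPM on MR. Every MR mouse was above every Con mouse of its genotype. Gars was 1.77 times higher in WT MR (log2 0.82 ± 0.099 SE, adjusted p = 1.3e-05) and 1.75 times higher in NRF2 KO MR (log2 0.81 ± 0.090 SE, adjusted p = 4e-06).

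Isoleucyl-tRNA synthetase (Iars, ENSMUSG00000037851, chr13:49682100-49734267), a subunit of the multi-synthetase complex, was the next of the cytosolic members in WT. Its WT Con values were 23.3, 20.8, 16.7, 22.3 and 20.9 CPM and its WT MR values were 32.5, 29.6, 43.3, 38.6 and 31.4 CPM. The NRF2 KO mice ran from 20.4 through a median of 22.9 to 27.1 CPM on Con and from 25.6 through 32.6 to 39.1 CPM on MR. The diets did not overlap in WT, whereas in NRF2 KO the lowest MR mouse lay within the range of the Con mice. The rise was 1.68-fold in WT (log2 0.75 ± 0.121 SE, adjusted p = 0.00024) and 1.40-fold in NRF2 KO (log2 0.49 ± 0.109 SE, adjusted p = 0.0048).

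Tyrosyl-tRNA synthetase (Yars, ENSMUSG00000028811, chr4:129189760-129219607) acts outside the complex. Con mice of the WT genotype had 22.3, 18.1, 16.3, 16.7 and 17.0 CPM and MR mice had 24.4, 24.9, 29.6, 22.9 and 27.3 CPM. In NRF2 KO it ran from 16.3 through 17.3 to 18.4 CPM on Con and from 19.9 through 26.7 to 31.2 CPM on MR. No Con mouse reached the lowest MR mouse of its genotype, although the margin in WT was narrow and was set by 1 Con mouse at 22.3 CPM. Yars was 1.43 times higher in WT MR (log2 0.52 ± 0.105 SE, adjusted p = 0.002) and 1.55 times higher in NRF2 KO MR (log2 0.63 ± 0.095 SE, adjusted p = 0.00016). The annotation places C77080 on the opposite strand within the 3′ end of Yars, and whether the counting used strand is not given in the sources used here.

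Arginyl-tRNA synthetase (Rars, ENSMUSG00000018848, chr11:35808381-35834506), another subunit of the complex, had 25.6, 24.2, 25.9, 23.7 and 25.9 CPM in WT Con and 37.6, 31.6, 37.4, 48.1 and 31.3 CPM in WT MR. Its NRF2 KO values ran from 21.4 through 25.1 to 29.0 CPM on Con and from 26.7 through 32.0 to 35.7 CPM on MR. WT mice separated by diet and NRF2 KO mice overlapped. The left-out mice WT_CON_7604 and WT_MR_7612, scaled with all 24 mice, had 38.0 and 65.8 CPM, the first above the lowest fitted WT MR mouse. Rars rose by 0.56 ± 0.103 SE on the log2 scale in WT (adjusted p = 0.0008) and by 0.31 ± 0.093 SE in NRF2 KO (adjusted p = 0.03). The second call was lost in 6 of 22 fits that each left out 1 mouse (KO_CON_7620, KO_CON_7623, KO_MR_7625, KO_MR_7628, KO_MR_7629 or KO_MR_7631), at log2 fold changes of 0.265 to 0.303 and adjusted p up to 0.077, and with all 24 mice in the fit (adjusted p = 0.18).

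Methionyl-tRNA synthetase (Mars1, ENSMUSG00000040354, chr10:127296221-127311786) charges tRNA, the initiator tRNA included, with the amino acid that the diet restricts. WT Con mice measured 52.3, 43.7, 40.0, 34.9 and 42.1 CPM, and WT MR mice measured 51.9, 62.5, 71.6, 53.5 and 52.2 CPM. In NRF2 KO the range was 35.4 to 54.2 CPM around a median of 38.1 CPM on Con and 47.5 to 70.3 CPM around 59.9 CPM on MR. The diets overlapped in both genotypes, in WT by 1 Con mouse that stood just above 2 of the MR mice. Mars1 was 1.37 times higher in WT MR (log2 0.46 ± 0.133 SE, adjusted p = 0.024) and 1.44 times higher in NRF2 KO MR (log2 0.52 ± 0.121 SE, adjusted p = 0.0062). The WT call was lost without the library labelled WT_CON_7607 (log2 0.397, adjusted p = 0.058), without WT_MR_7613 (0.375, adjusted p = 0.069) and without WT_CON_7605 (0.432, adjusted p = 0.05). Ddit3, the gene of the stress factor CHOP, lies on the opposite strand over the 3′ end of Mars1, and it was not called under MR in either genotype (log2 -0.27, adjusted p = 0.56 in WT, and -0.14, adjusted p = 0.77 in NRF2 KO).

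Asparaginyl-tRNA synthetase (Nars, ENSMUSG00000024587) showed a tighter separation in WT, where Con mice had 139, 134, 134, 131 and 145 CPM and MR mice had 165, 170.5, 185, 172 and 172 CPM. NRF2 KO Con mice ran from 95.7 through 122 to 134 CPM and NRF2 KO MR mice from 129 through 156 to 173 CPM. Among the fitted mice, the groups did not overlap in WT and overlapped in NRF2 KO. Of the mice left out, WT_CON_7604 had 169.9 CPM and WT_MR_7612 had 192.0 CPM, scaled with all mice of the series. The first of them lay above the lowest fitted WT MR mouse. The log2 fold change was 0.34 ± 0.086 SE in WT (adjusted p = 0.0099) and 0.35 ± 0.079 SE in NRF2 KO (adjusted p = 0.0048).

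Glutamyl-prolyl-tRNA synthetase (Eprs, ENSMUSG00000026615, chr1:185363044-185428360) is a bifunctional subunit of the complex. It measured 161, 136, 138, 148 and 155 CPM in WT Con and 192, 170.3, 188, 189 and 166 CPM in WT MR. In NRF2 KO it ran from 131 through 138 to 158 CPM on Con and from 161 through 171 to 188 CPM on MR. The diets were apart in both genotypes among the 22 mice. The left-out mice WT_CON_7604 and WT_MR_7612, scaled with all 24 mice, had 217 and 255 CPM. The first of them lay above every WT MR mouse in the fit. Eprs rose by 0.30 ± 0.074 SE on the log2 scale in WT (adjusted p = 0.0097) and by 0.28 ± 0.068 SE in NRF2 KO (adjusted p = 0.0087), and both calls were lost with all 24 mice in the fit (adjusted p = 0.071 and 0.085).

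**Figure D3:**
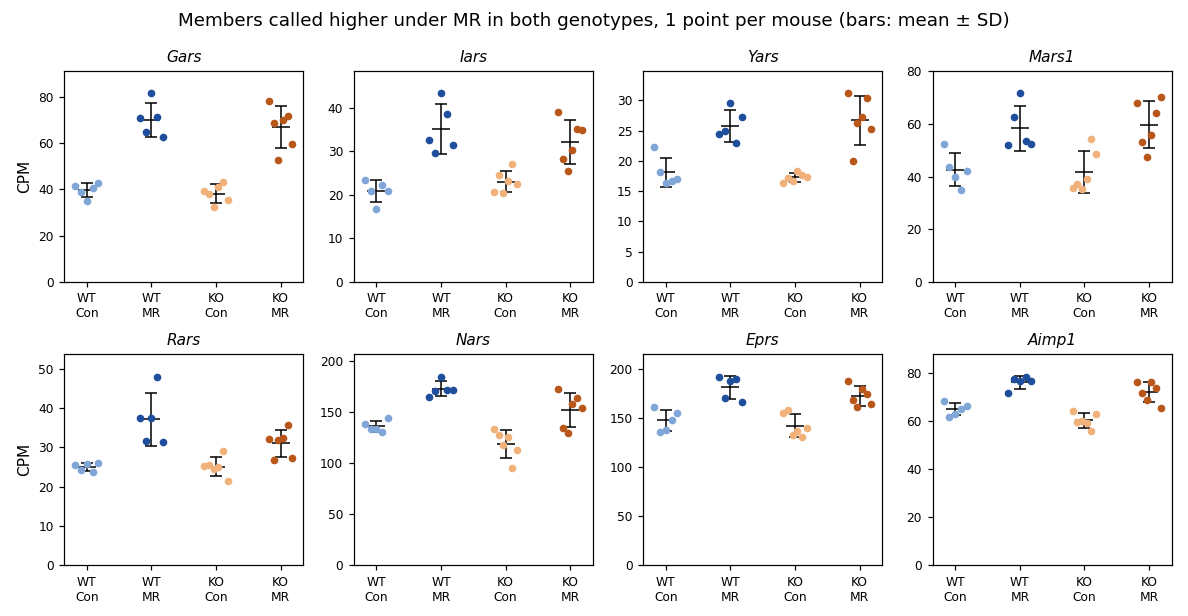
CPM (vertical axis, from 0) of the 8 members called higher under MR in both genotypes, with 1 point per mouse in WT Con, WT MR, KO Con and KO MR and bars for mean ± SD. In Gars the WT MR mice lie from 62.5 to 81.5 CPM, above WT Con mice from 35.2 to 42.6 CPM, and Mars1 shows overlap in both genotypes.

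In all, 7 cytosolic synthetases and the scaffold protein Aimp1 were called higher in both genotypes, which 3.17% of all genes were. In WT, 9 of the 20 cytosolic members had every MR mouse above every Con mouse, a pattern found in 5.32% of all genes, and in NRF2 KO 3 of the 20 had it (Eprs, Gars and Yars), beside 2.62% of all genes. Kars, the lysyl-tRNA synthetase gene, was the 1 member of those 9 in WT that was not called (log2 0.18, adjusted p = 0.063). The log2 fold change was above 0 for 18 of the 20 in WT and 17 of the 20 in NRF2 KO, where 49% and 49.2% of all genes were above 0.

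Cysteinyl-tRNA synthetase (Cars) had much the same log2 fold change in both genotypes and stood near the threshold, at 0.37 (adjusted p = 0.091) in WT and 0.40 (adjusted p = 0.047) in NRF2 KO. The NRF2 KO call was kept in 8 of the 22 fits that left out 1 mouse, with log2 values from 0.334 without KO_CON_7620 to 0.507 without KO_MR_7627 and adjusted p from 0.0059 to 0.12, and it was lost with limma (adjusted p = 0.065) and with only the groups compared (0.086). Valyl-tRNA synthetase (Vars) was called in WT alone, at 0.32 (adjusted p = 0.045), with 0.13 (adjusted p = 0.42) in NRF2 KO, and its WT call was kept in 9 of the 22 such fits, with log2 values from 0.25 without WT_CON_7605 to 0.413 without WT_CON_7608, and an adjusted p of 0.061 without the library labelled WT_CON_7607. The Vars call was also lost with library size alone (adjusted p = 0.054), with at least 10 counts in every mouse (0.059), with only the groups compared (0.096) and with all 24 mice, unweighted (0.06) or weighted (0.062).

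Tars and Wars, which charge tRNA with threonine and tryptophan, were the cytosolic members below 0 in both genotypes, and neither was called in the fit of 22 mice. Tars measured 191 ± 47.5 CPM in WT Con and 166 ± 27.9 CPM in WT MR (SD, n = 5), with log2 fold changes of -0.20 and -0.16 in WT and NRF2 KO (adjusted p = 0.41 and 0.51). Wars had a log2 fold change of -0.25 in both (adjusted p = 0.14 and 0.11). In NRF2 KO it was called lower with all 24 mice and quality weights (-0.29, adjusted p = 0.034) and without KO_CON_7623 (-0.32, adjusted p = 0.035). Beside Kars, the 6 other cytosolic members called in neither genotype (Aars, Farsa, Farsb, Hars, Lars and Sars) had log2 fold changes of 0.13 to 0.23 in WT mice and of 0.025 to 0.24 in NRF2 KO mice.

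By place in the cell, the 8 synthetases of the multi-synthetase complex included 6 called in WT and 4 in NRF2 KO, with median log2 fold changes of 0.287 and 0.223. The 12 cytosolic members outside it included 4 called in WT and 4 in NRF2 KO, with medians of 0.187 and 0.166. By structural class, the 9 class I enzymes included 6 called in WT and 5 in NRF2 KO, at medians of 0.373 and 0.31, and the 10 class II enzymes included 3 and 2, at medians of 0.167 and 0.131. Eprs, which has a catalytic part of each class, stood outside this division. These differences between subsets were not tested.

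The scaffold proteins divided among themselves. Aimp1 (ENSMUSG00000028029, chr3:132660499-132684370) measured 68.1, 61.7, 62.9, 65.0 and 66.0 CPM in WT Con and 71.6, 77.2, 76.3, 78.4 and 76.6 CPM in WT MR. It ran from 55.7 through 59.6 to 64.3 CPM in NRF2 KO Con and from 65.3 through 72.7 to 76.1 CPM in NRF2 KO MR. Among the fitted mice, Con and MR did not overlap in either genotype. Of the mice left out, WT_CON_7604 had 73.58 CPM and WT_MR_7612 had 84.56 CPM, scaled with all mice of the series. The first of them lay above the lowest fitted WT MR mouse. The log2 fold change of Aimp1 was 0.23 ± 0.061 SE in WT (adjusted p = 0.013) and 0.26 ± 0.055 SE in NRF2 KO (adjusted p = 0.0036). Aimp2 had log2 fold changes of 0.03 and 0.01 and was called in neither (adjusted p = 0.86 and 0.97).

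Eef1e1 (ENSMUSG00000001707, chr13:38644207-38659058), the gene of the scaffold protein also called AIMP3, rose in WT. Its WT Con mice had 4.90, 5.25, 4.23, 5.42 and 5.34 CPM and its WT MR mice had 7.83, 7.12, 8.04, 7.84 and 7.08 CPM, with no overlap among the fitted mice. Of the mice left out, WT_CON_7604 had 8.845 CPM and WT_MR_7612 had 10.23 CPM, scaled with all mice of the series. The first of them lay above every WT MR mouse in the fit. NRF2 KO mice ran from 5.00 through 5.67 to 7.47 CPM on Con and from 4.95 through 5.54 to 9.12 CPM on MR, and these ranges overlapped. The log2 fold change was 0.59 ± 0.148 SE in WT (adjusted p = 0.0097) and 0.07 ± 0.133 SE in NRF2 KO (adjusted p = 0.78).

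Ears2 (ENSMUSG00000030871, chr7:122037213-122067263), the mitochondrial glutamyl-tRNA synthetase, was the 1 mitochondrial member called in the main fit of 22 mice. WT Con mice had 10.2, 8.14, 6.94, 8.09 and 8.19 CPM and WT MR mice had 10.4, 10.4, 11.1, 10.9 and 10.5 CPM. In NRF2 KO it ran from 7.05 through 9.14 to 11.0 CPM on Con and from 6.86 through 8.73 to 9.81 CPM on MR. WT mice separated by diet, with 1 Con mouse close under the MR mice, and NRF2 KO mice overlapped. The left-out mice WT_CON_7604 and WT_MR_7612, scaled with all 24 mice, had 10.41 and 11.9 CPM, the first just above the lowest fitted WT MR mouse at 10.36 CPM. The log2 fold change was 0.36 ± 0.120 SE in WT (adjusted p = 0.048) and -0.08 ± 0.109 SE in NRF2 KO (adjusted p = 0.68). The WT call was kept in 7 of the 22 fits without 1 mouse, with log2 values from 0.297 without WT_CON_7605 to 0.436 without WT_CON_7602, and without the library labelled WT_CON_7607 the adjusted p was 0.076. It was also lost with at least 10 counts in every mouse (0.055), only the groups compared (0.054) and all 24 mice (0.052).

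Mars2 (ENSMUSG00000046994, chr1:55237177-55248470), the mitochondrial enzyme for methionine, was scarcer in counts and less precise. WT Con mice had 1.97, 2.51, 1.93, 2.02 and 1.51 CPM and WT MR mice had 2.92, 2.55, 2.33, 3.92 and 2.50 CPM. In NRF2 KO it ran from 1.90 through 2.61 to 3.44 CPM on Con and from 1.90 through 2.67 to 3.31 CPM on MR. The diets overlapped in both genotypes, and the test called neither, at 0.50 ± 0.193 SE in WT (adjusted p = 0.084) and -0.02 ± 0.168 SE in NRF2 KO (adjusted p = 0.97). The other 14 mitochondrial members ran from -0.33 for Nars2 to 0.26 for Vars2 in WT and from -0.23 for Yars2 to 0.26 for Cars2 in NRF2 KO. Their counts limit the precision, from 510 counts in all 24 mice for Pars2, which had a standard error of 0.302 in WT, to 18474 for the best counted of the set.

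Set beside the cytosolic enzyme for the same amino acid, the mitochondrial member had the smaller log2 fold change in 11 of 16 pairs in WT and in 13 of 16 in NRF2 KO, in 11 of them in both. Glycine, lysine, glutamine and aspartate have no pair among the members, and Eprs stands for both glutamate and proline. The pairs differed most for isoleucine in WT (Iars 0.75, Iars2 -0.06) and for tyrosine in NRF2 KO (Yars 0.63, Yars2 -0.23). Exceptions in both genotypes were serine, where the values were close, and threonine and tryptophan, where the cytosolic members were the ones below 0. These are descriptions with no test.

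Sequences just before and after the start of transcription were searched because the members that rose together are of a family with known ATF4 targets. The motif TGATGNAA, the composite element of C/EBP and ATF factors, was looked for on both strands in the 250 bases before and 50 bases after each RefSeq gene start (GRCm38.p6). Of the members, 30 had a promoter in the table, and Cars, Hars, Lars, Nars, Rars, Vars, Wars, Hars2 and Pars2 had no entry. The motif was in 5 of 13 cytosolic members (38.5%), in 0 of 14 mitochondrial members and in 0 of 3 scaffold members, and in 1304 of all 32851 promoters (3.97%), or 1219 of 27025 genes (4.51%). Of the 6 members with a promoter that were called higher in both genotypes, Gars, Iars and Yars had it and Aimp1, Eprs and Mars1 did not. The stretches around each match are printed 5′ to 3′ on the strand of the gene, with the motif in capitals, which reads as its reverse complement in all but Yars.
Gars, 30 bases before the start (chr6:55037941-55038000, plus strand): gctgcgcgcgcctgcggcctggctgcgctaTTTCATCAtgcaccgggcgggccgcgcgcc
Iars, 7 bases after the start (chr13:49682127-49682154, plus strand): actgtcagtaTTGCATCAcctccagacg
Yars, 3 bases after the start (chr4:129189896-129189923, plus strand): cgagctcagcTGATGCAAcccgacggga
Aars, 112 bases before the start (chr8:111033700-111033767, plus strand): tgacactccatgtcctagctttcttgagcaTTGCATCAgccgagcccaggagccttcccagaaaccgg
Aars, 9 bases after the start (chr8:111033841-111033868, plus strand): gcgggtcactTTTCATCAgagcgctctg
Tars, 15 bases before the start (chr15:11399659-11399703, minus strand): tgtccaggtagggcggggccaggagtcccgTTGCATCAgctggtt
Aars, with a match on each side of its start, and Tars were called in neither genotype, so the match and the call went together in some members and not in others. A match is a run of letters and not a measured binding site.

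WT and NRF2 KO were then compared directly. For genotype, 0 of the 39 members were called on Con and 0 on MR by edgeR, with 6 and 9 at an unadjusted p under 0.05, and DESeq2 and limma called 0 on each diet. Among all 13336 genes, 2.07% were called on Con and 1.93% on MR, and 1917 and 1851 had an unadjusted p under 0.05. The lowest adjusted p among the members was 0.2 on Con and 0.16 on MR. On MR, the members at an unadjusted p under 0.05 were Dars, Nars, Qars, Rars, Sars, Tars, Eef1e1 and Ears2 with lower values in NRF2 KO (log2 -0.16 to -0.32) and Cars2 with a higher value (0.27), and of these only Qars and Ears2 had every NRF2 KO MR mouse below every WT MR mouse, which 2.91% of all genes had. Without the mouse KO_MR_7631, Eef1e1 was called lower in NRF2 KO on MR (log2 -0.47 ± 0.115 SE, adjusted p = 0.031).

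The interaction of genotype and diet asks whether the response to MR itself differed. No member was called by edgeR, DESeq2 or limma, and 0.045% of all genes were called by edgeR. At an unadjusted p under 0.05 were 5 of the 39 members, beside 1008 of all 13336 genes. Those 5 were Cars2 (difference of log2 fold changes, NRF2 KO minus WT, 0.42 ± 0.135 SE, adjusted p = 0.41), Ears2 (-0.44 ± 0.162 SE, adjusted p = 0.5), Eef1e1 (-0.52 ± 0.199 SE, adjusted p = 0.51), Dars (-0.24 ± 0.097 SE, adjusted p = 0.56) and Qars (-0.20 ± 0.093 SE, adjusted p = 0.64). Mars2 had a difference of the same size as Eef1e1 (-0.52) with a wider error. A call in WT and none in NRF2 KO is therefore not shown to be a difference between the genotypes for any member.

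Qars and Dars, subunits of the complex for glutamine and aspartate, carry the values behind those differences among the cytosolic members. Qars measured 34.1, 37.1, 32.7, 29.9 and 35.9 CPM in WT Con and 41.0, 41.7, 40.6, 41.6 and 41.2 CPM in WT MR. It ran from 31.3 through 35.3 to 36.9 CPM in NRF2 KO Con and from 33.1 through 37.8 to 38.7 CPM in NRF2 KO MR. The WT groups did not overlap and the NRF2 KO groups did, at log2 fold changes of 0.28 ± 0.069 SE (adjusted p = 0.0088) and 0.08 ± 0.062 SE (adjusted p = 0.44).

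For Dars, WT Con mice had 40.9, 36.9, 41.4, 38.7 and 39.0 CPM and WT MR mice had 44.6, 43.7, 44.8, 50.2 and 47.8 CPM. NRF2 KO mice ran from 37.5 through 41.7 to 47.0 CPM on Con and from 38.6 through 40.0 to 46.5 CPM on MR. Again the diets were apart in WT and overlapped in NRF2 KO. The log2 fold change was 0.23 ± 0.072 SE in WT (adjusted p = 0.036) and -0.01 ± 0.066 SE in NRF2 KO (adjusted p = 0.96). Leaving out WT_CON_7603, the library labelled WT_CON_7607, WT_CON_7608, WT_MR_7615 or WT_MR_7616 ended the WT call, at adjusted p values of 0.058 to 0.092, as did fitting only the groups compared (0.058). Without the library labelled WT_CON_7607 the log2 fold change of Dars in WT was 0.225 (edgeR, adjusted p = 0.062).

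**Figure D4:**
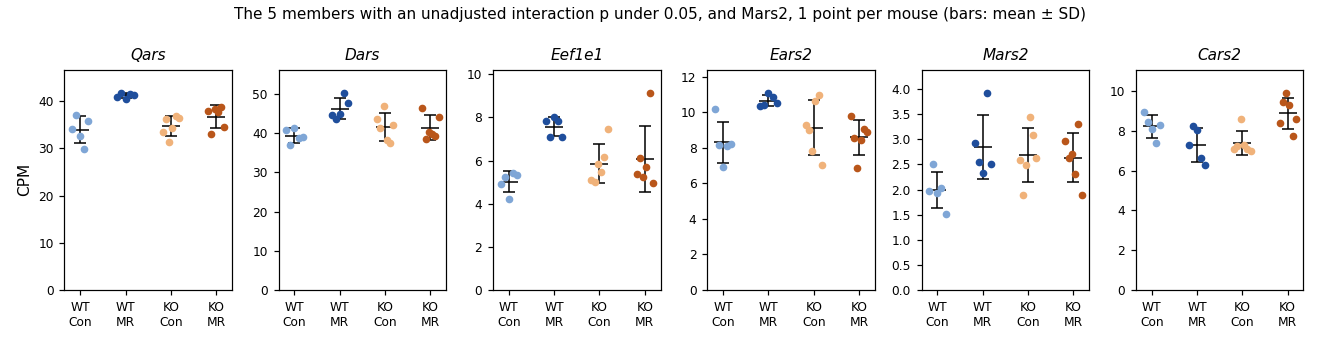
CPM (vertical axis, from 0) of the 5 members with an unadjusted interaction p under 0.05 and of Mars2, with 1 point per mouse in WT Con, WT MR, KO Con and KO MR and bars for mean ± SD. Qars, Dars, Eef1e1 and Ears2 separate by diet in WT and overlap in KO, Cars2 is lower on MR in WT and higher on MR in KO by its means with overlap in both, and 1 KO MR mouse at 9.12 CPM stands apart in Eef1e1.

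Across the 20 cytosolic members, the log2 fold changes under MR in WT and NRF2 KO, which share no mice, had a Pearson r of 0.9 and a Spearman rho of 0.844, and 13 of the 20 were larger in WT. For the 16 mitochondrial members r was 0.268 and rho 0.529, and over all 13336 genes r was 0.705 and rho 0.595. The points are genes measured in the same libraries and are not independent, so these values are a description.

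Of 22 other genes of tRNA charging and delivery, 21 were in the table (Aarsd1 was not analysed here). In WT, where 13.8% of all genes were called, 4 of the 21 were called, all higher, and they were subunits of elongation factor 1, which brings charged tRNA to the ribosome and recycles its own GTP: Eef1a1 (log2 0.39, adjusted p = 0.0009), Eef1b2 (0.58, adjusted p = 0.00025), Eef1d (0.37, adjusted p = 0.0094) and Eef1g (0.28, adjusted p = 0.014). In NRF2 KO, where 12.6% of all genes were called, 5 of the 21 were called. Eef1b2 (0.34, adjusted p = 0.01) and Eef1g (0.22, adjusted p = 0.033) were called higher, together with Dtd1 (0.47, adjusted p = 0.0042), an enzyme that removes D-amino acids from tRNA, and Sepsecs (0.46, adjusted p = 0.017), which makes selenocysteinyl-tRNA. Dtd2, a related editing enzyme, was called lower in NRF2 KO (-0.39, adjusted p = 0.0091), a call lost when counts were scaled by library size alone (-0.23, adjusted p = 0.092). The Eef1g call in NRF2 KO was lost in 7 of the 22 fits without 1 mouse, at adjusted p up to 0.09. Eef1a1 measured 653 ± 54.1 CPM in WT Con and 855 ± 52.2 CPM in WT MR (SD, n = 5), and 687 ± 29.1 and 722 ± 26.9 CPM in NRF2 KO (SD, n = 6). Its interaction was not called (-0.32 ± 0.097 SE, adjusted p = 0.37). The median log2 fold change of the 21 was 0.027 in WT and 0.026 in NRF2 KO.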

How the data were processed

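Liver RNA of 24 male mice was sequenced as QuantSeq 3′ libraries, 1 per mouse. The deposited values are raw counts per gene, which the authors obtained with the QuantSeq pipeline 2.3.6 FWD; the submitters' processing notes name GRCm38 and mm10, and the aligner and the strand setting are not given in the sources used here. The signal values deposited by the authors are those counts divided by a DESeq2 size factor per mouse and were used for 1 alternative. Gene positions were taken from GENCODE M21 and promoters from RefSeq (GRCm38.p6).

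Testing used edgeR 4.0.16 (R 4.3.3) with filterByExpr by group and TMM scaling. Group means over 22 mice were fitted together and compared by robust quasi-likelihood F-tests, with Benjamini-Hochberg adjustment over 13336 genes and a threshold of 0.05. Standard errors given with edgeR values were derived from the test, as the absolute log2 fold change divided by the square root of F. CPM used TMM library sizes. The fit was tested on simulated data. Alternatives were DESeq2 1.42.0, limma 3.58.1 on log2(signal + 1), other scalings and filters, all 24 mice with or without quality weights, only the groups compared, and leaving out each mouse.

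Values by mouse were given for members called in both genotypes, members called with no overlap between diets, Mars1 and Mars2, and Asns and Nfe2l2 were given as context; others were named as their counts required, and Ddit3, Cars2 and the promoter motif were chosen after values were seen. The members and lists were chosen with earlier results of these data known. Depth sets counting error only. The edgeR p-values of the main fit set a difference between groups against a spread between mice. That spread was estimated over all groups together and drew on other genes. The lowest chi-square per degree of freedom between mice of a group was 8.32, above sampling noise, so each library was kept as its own replicate.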

Additional observations from a re-analysis of the deposited data

Results flagged for a closer look

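Eef1e1, the gene of a scaffold protein of the multi-synthetase complex, was at 9.12 CPM in the mouse KO_MR_7631 and at no more than 6.10 CPM in the other NRF2 KO MR mice, a gap that is large for a group of 6. It was the 1 such value in 60 groups looked at (15 genes in 4 groups each), and chance marks about 1 in 20 groups. Without this mouse the log2 fold change of Eef1e1 under MR in NRF2 KO was -0.09 ± 0.111 SE in place of 0.07 ± 0.133 SE, and its interaction was -0.68 ± 0.160 SE (adjusted p = 0.17, edgeR).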

How the results depend on the processing

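Of the results that answer a comparison, 119 values under alternatives counted as unchanged, 12 moved and 3 lost a call. These counts, and those for other single genes, do not include the fits that each left out 1 mouse. Such fits ended further calls, as given with the genes above and in the next paragraph. A count of calls was unchanged if it stayed within a fixed ratio of the main count. A set median was unchanged within the SD of the set mean between mice, whatever its sign. For Nfe2l2, direction and side of the threshold had to be kept. Of the values for other single genes, 279 kept direction and side of the threshold, 15 lost a call, 2 changed sign and 1 gained a call. Cytosolic calls ran from 8 (all 24 mice) to 11 (DESeq2, library size only) in WT and from 6 (all 24 mice) to 12 (library size only) in NRF2 KO. Library size alone shifted the median of all genes by 0.087 in WT and 0.152 in NRF2 KO, and with it the cytosolic medians to 0.348 and 0.335 and the mitochondrial medians to 0.071 and 0.104. Mitochondrial calls in WT were 3 with library size alone and 0 with at least 10 counts in every mouse, with only the groups compared and with all 24 mice, where the median was 0.045. In NRF2 KO they were 1 with library size alone (Cars2), 1 with only the groups compared (Yars2, lower) and 2 with quality weights. Nfe2l2 on Con was 0.761 with library size alone (adjusted p = 0.14), 0.836 with no filter (adjusted p = 0.052) and 0.837 with only the groups compared (adjusted p = 0.26). Mars2 in NRF2 KO changed sign to 0.143 with library size alone and 0.066 with quality weights. The causes were not tested.

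Leaving out each mouse in turn gave 7 (without the library labelled WT_CON_7607, which ended the calls of Dars, Mars1 and Vars) to 10 cytosolic calls in WT and 6 (without KO_CON_7620) to 9 in NRF2 KO, with medians of 0.247 to 0.301 and 0.153 to 0.228. Mitochondrial calls were 0 to 1 in both genotypes, with medians of -0.048 to 0.007 in WT and -0.075 to -0.01 in NRF2 KO. Members called for genotype on MR were 0 to 1 (Eef1e1, without KO_MR_7631), and 0 on Con and for the interaction. Other tRNA charging genes called were 4 in WT and 4 to 7 in NRF2 KO. Nfe2l2 was 0.713 to 1.272 on Con (call kept in 2 of 22 fits) and 1.148 to 1.207 on MR, and Mars2 in NRF2 KO was -0.098 to 0.068. No paired analysis was possible, since each mouse number occurs in only 1 group and the labels give no litter. The paper describes the WT mice as littermates of the NRF2 KO mice, and litter was not modelled.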
